A study of Mus musculus with 2 samples.

Results

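The heat shock chaperones described here are 10 genes among the 31053 features counted in scRNA-seq of the mouse colon lamina propria. They were chosen by symbol, and each symbol was present once in the feature list of both libraries. 6 of them are induced by proteotoxic stress (Hspa1a, Hspa1b, Dnajb1, Dnaja1, Hsph1 and Hsp90aa1), and 4 are mainly constitutive (Hsp90ab1, Hspa8, Hspd1 and Hspe1). This division was taken from textbook knowledge and not from the counts.

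lncLy6c is a long noncoding RNA. The study set mice lacking it (KO) against wild-type (WT) mice, and the KO library carries the genotype label LncRNA17Rik knockout. Both libraries were made from colon lamina propria cells labelled cd11b+, a surface integrin of myeloid cells, and both came from pooled male mice aged 8 weeks with no treatment named in the labels. There was 1 library per genotype. No test between the genotypes was therefore possible, and every interval below is a 95% interval that covers counting error only. A difference between the pools cannot be told apart from a difference between the preparations.

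After filtering, 2597 WT and 2514 KO cells remained, with medians of 5073 and 6564.5 unique molecular identifiers (UMIs, each standing for 1 captured mRNA molecule) per cell. The deposited matrices held 22191774 and 23384895 UMIs. 1 barcode was shared by both libraries. Clustering gave 19 clusters, which were named from marker genes, and 5.62% of the WT and 13.2% of the KO cells received no name. Against the cd11b+ label, B cell-like (200 WT, 85 KO), T cell-like (241, 110), plasma cell-like (234, 5), epithelial-like (144, 16) and stromal-like (80, 21) cells were also present. The gene that both primers of the study for lncLy6c match, 1700016P04Rik, had 0 UMIs in both libraries, which allows up to 0.135 CPM (UMIs of a gene per 1000000 UMIs) in WT and 0.128 in KO. It therefore does not check the genotype labels.

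Chaperones bind unfolded or partly folded proteins and use cycles of ATP hydrolysis to help them fold, refold or reach degradation. When unfolded proteins accumulate, the transcription factor HSF1 is released from chaperones, forms trimers and binds heat shock elements, which are inverted repeats of a short GAA unit, in the promoters of the inducible genes. The constitutive members serve protein folding in unstressed cells, and tissue dissociation is itself known to raise inducible chaperone mRNAs in single-cell preparations.

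The upstream sequences of the Hsp70 pair are shown because Hspa1a and Hspa1b moved together in most of the comparisons below. They are the 150 bases before each start site, 5′ to 3′ on the strand of the gene, from RefSeq on GRCm38.p6, with an inverted GAA pair in capitals. Hspa1a lies at chr17:34972157-34972306 and Hspa1b at chr17:34959239-34959388, both on the minus strand.
Hspa1a: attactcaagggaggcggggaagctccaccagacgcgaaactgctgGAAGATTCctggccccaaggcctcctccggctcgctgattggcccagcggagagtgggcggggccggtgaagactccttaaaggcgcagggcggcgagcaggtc
Hspa1b: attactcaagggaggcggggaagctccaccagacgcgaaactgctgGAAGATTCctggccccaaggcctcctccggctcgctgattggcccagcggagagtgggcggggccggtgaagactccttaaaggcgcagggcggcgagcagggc
Of these 150 bases, 149 were the same in both genes, and over the full 250 upstream bases 247 were the same (98.8%). The capital letters stand at positions -104 to -97 of both, counting back from -1 at the base before the start site.

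Stretches of 30 bases around the matches in the other members are shown next, because they cut across the division into inducible and constitutive genes. Capitals mark the repeat, and each sequence is given on the strand of its gene. The Dnaja1 stretch lies at chr4:40722333-40722362 (plus strand), those of Hsph1 at chr5:149636351-149636380 and chr5:149636287-149636316 (minus strand), and those of Hspd1 and Hspe1 at chr1:55088053-55088082, read on the minus strand for Hspd1 and on the plus strand for Hspe1.
Dnaja1: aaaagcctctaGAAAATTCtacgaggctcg
Hsph1, before the start: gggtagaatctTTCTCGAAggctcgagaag
Hsph1, after the start: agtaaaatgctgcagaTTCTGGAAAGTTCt
Hspd1: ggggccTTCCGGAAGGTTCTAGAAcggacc
Hspe1: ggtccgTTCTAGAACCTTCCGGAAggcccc
Hspd1 and Hspe1 are neighbours transcribed in opposite directions. Their start sites in GENCODE lie 111 bases apart, with the annotated 5′ ends overlapping. The Hspd1 match lies before the second of its 2 RefSeq starts, and the window of the first start held none. The printed matches of Hspd1 and Hspe1 are a single stretch of DNA, which counts as 1 observation.

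The letters searched were GAANNTTC and TTCNNGAA, which are each their own reverse complement, and the 3-unit forms in which these overlap (GAANNTTCNNGAA and TTCNNGAANNTTC), each the reverse complement of the other, so that both strands were covered. The window ran from 250 bases before to 50 bases after each start site. RefSeq windows matched 7 of the 10 members, with 12 windows in all, and windows for Hsp90aa1, Hsp90ab1 and Hspa8 were not used here. A 2-unit form was present in 7 of the 12 windows, which belong to 6 of the 7 genes, and a 3-unit form in 4 windows, which belong to Hsph1, Hspd1 and Hspe1. These windows are not independent, since some belong to 1 gene, Hspd1 and Hspe1 share theirs and those of Hspa1a and Hspa1b are nearly identical. Among 32851 windows of the same length, 15.1% held a 2-unit form and 0.603% a 3-unit form. These letters were not found in the windows of Dnajb1, which says nothing about binding there. The diagram of repeat positions sets these matches side by side.

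**Figure D1:**
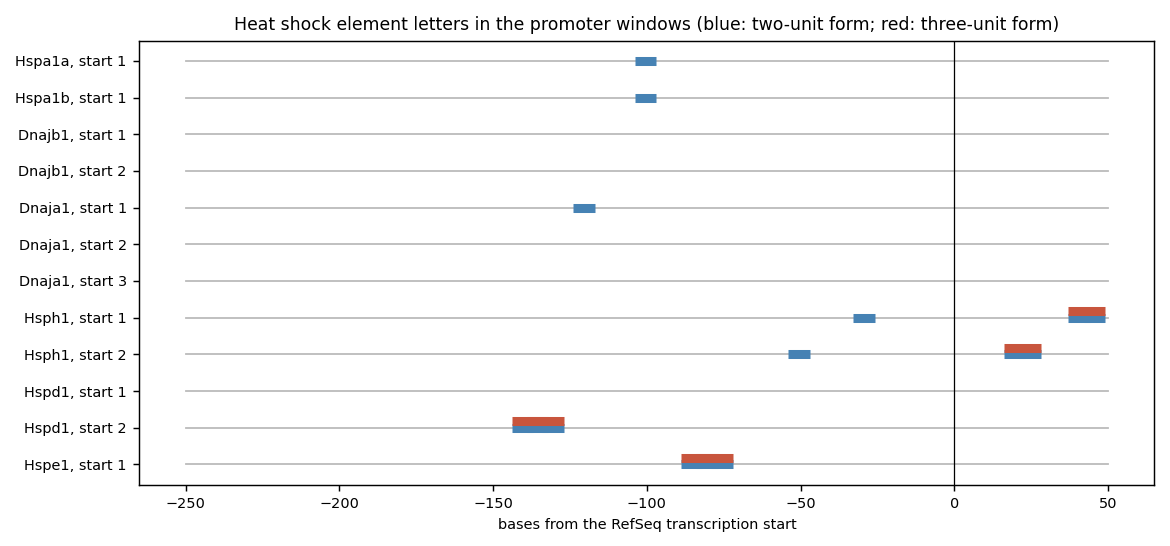
Positions of GAANNTTC and TTCNNGAA matches, in bases from the start site, in each RefSeq promoter window of the 7 members that have one, with 2-unit forms in blue and 3-unit forms in red. The matches of Hspa1a and Hspa1b sit at the same distance, and the 3-unit matches are those of Hsph1, Hspd1 and Hspe1.

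The genes themselves are spread over the genome (GRCm38, GENCODE M21). Hspa1a (chr17:34969190-34972156) and Hspa1b (chr17:34956436-34959238) are neighbours on the minus strand of chromosome 17 with starts 12918 bases apart, and Hsp90ab1 (chr17:45567775-45573271, minus strand) lies farther along the same chromosome. Hspd1 (chr1:55077835-55088243, minus strand) and Hspe1 (chr1:55088132-55091307, plus strand) share a promoter region. Dnajb1 is at chr8:83608193-83612653 (plus), Dnaja1 at chr4:40722150-40737149 (plus), Hsph1 at chr5:149614287-149636376 (minus), Hsp90aa1 at chr12:110690605-110702728 (minus) and Hspa8 at chr9:40800984-40810087 (plus).

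The kit read the 3′ ends of mRNAs, so whether near copies can be told apart depends on those ends. In the last 500 bases of each transcript, the 100-base stretches of Hspa1a and Hspa1b, like those of 6 other members, occurred in no other gene. For Hspa8, 79.3% of these stretches also occurred in 7 other gene entries, and for Hspe1 34.4% occurred in 1 other. The levels of Hspa8 and Hspe1 are therefore uncertain. This contrasts with the oligos of the study for Hspa1a: read on either strand, the forward primer ccaccatccccaccaagcag matched transcripts of 12 genes, Hspa1b and Hspa8 among them, the reverse primer agttcgaagcgccccagcag only those of Hspa1a, and the siRNA agaagaaggugcuggacaagu those of 3 genes, Hspa1a, Hspa1b and, as the antisense, Gm20481.

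Levels below are the summed UMIs of a gene over all cells of a class per 1000000 UMIs of that class (CPM), and a ratio is log2 of the KO level over the WT level. The classes are cells whose cluster raised the markers of a type, and each is meant as "-like" where only the type is written. A gene was called higher or lower where its ratio was at least 2-fold and its interval excluded 0. All ratios should be read against the median ratio over all genes of the class with at least 50 UMIs in both libraries together, which are the genes counted as the background of each call. All 10 members reached 50 UMIs in 6 of the 8 classes compared, and 6 did in eosinophils and 7 in neutrophils.

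Resident macrophages, the C1qa- and Apoe-expressing cells that clear debris in the lamina propria, had the highest levels of the inducible Hsp70 pair among the 8 classes in both libraries, and the KO level was about 3-fold the WT level. Of the 6 inducible members, 2 were called higher in KO and all 6 had intervals above 0, whereas none of the 4 constitutive members was called and 1 had an interval above 0. Over all 5685 genes with enough UMIs in these 278 WT and 136 KO cells, 2.76% were called higher and 6.19% lower, and the interval lay above 0 for 11.5% and below 0 for 28.5%. The median ratio was 0.89 for the inducible members, 0.17 for the constitutive members and -0.21 for all genes.

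Hspa1a, an Hsp70 that holds unfolded proteins and is scarcely made in unstressed cells, stood at 474 CPM (848 UMIs) in WT and 1358 CPM (1582 UMIs) in KO resident macrophages, a ratio of 1.52 (interval 1.40 to 1.64). Hspa1b, which encodes a nearly identical Hsp70, stood at 415 CPM (WT) and 1350 CPM (KO), a ratio of 1.70 (1.57 to 1.83). Summed, the pair went from 889 to 2708 CPM. Both genes contributed about equally, with Hspa1a making up 53.3% of the UMIs of the pair in WT and 50.1% in KO. The ratio of Hspa1a was 2.29 when stress genes were not held out of the clustering and 0.82 when each library was clustered alone, where the class held 520 WT and 310 KO cells and the 2-fold call was lost.

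The co-chaperones of Hsp70 differed less. Dnajb1, a J-domain protein that delivers substrates to Hsp70 and stimulates its ATPase, was at 105 CPM (WT) and 189 CPM (KO), a ratio of 0.85 (0.57 to 1.14). Dnaja1, another J-domain protein, was at 239 and 397 CPM, with a ratio of 0.73 (0.54 to 0.93). Hsph1, an Hsp110 that exchanges nucleotide on Hsp70, was at 47.5 and 90.1 CPM, with a ratio of 0.92 (0.50 to 1.35). All 3 intervals lay above 0 and below that of either Hsp70 gene. Hsp90aa1, the stress-inducible cytosolic Hsp90, was at 1302 CPM (WT) and 1872 CPM (KO), a ratio of 0.52 (0.44 to 0.61).

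Among the constitutive members of resident macrophages, only Hspa8 had an interval above 0. Hspa8, the constitutive Hsp70 of the cytosol, was at 1689 CPM (WT) and 2315 CPM (KO), a ratio of 0.45 (0.38 to 0.53). Hsp90ab1, the constitutive Hsp90, was at 1279 and 1361 CPM, with a ratio of 0.09 whose interval included 0. The mitochondrial chaperonin gene Hspd1 was at 97.9 and 116 CPM, and that of its lid Hspe1 at 260 and 247 CPM, both with intervals that included 0.

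In inflammatory monocytes, the Ly6c2- and Ccr2-expressing precursors that enter the colon from blood, the Hsp70 pair was lower than in resident macrophages, while the KO to WT ratio was of similar size. Hspa1a was at 124 CPM (416 UMIs) in WT and 417 CPM (1385 UMIs) in KO, a ratio of 1.75 (1.59 to 1.91). Hspa1b was at 103 and 369 CPM, a ratio of 1.84 (1.67 to 2.02). These 2 members were called higher, against 2.75% of all 7338 such genes in 602 WT and 387 KO cells, and 6.62% of all genes were called lower. The interval lay above 0 for 15.5% of these genes and below 0 for 32.1%, and for 5 of the 6 inducible and 3 of the 4 constitutive members it lay above 0.

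The remaining inducible members of monocytes showed ratios below 1. Dnaja1 was at 267 CPM (WT) and 433 CPM (KO) (ratio 0.70, 0.58 to 0.82), Hsph1 at 20.0 and 31.3 CPM, and Dnajb1 at 58.4 and 77.6 CPM (ratio 0.41, 0.14 to 0.69). Hsp90aa1 was at 998.7 CPM (WT) and 1019 CPM (KO), with an interval of -0.04 to 0.10. Of the constitutive members, Hspa8 (1787 and 1974 CPM), Hsp90ab1 (995 and 1090 CPM) and Hspe1 (170 and 207 CPM) had intervals above 0 with ratios of at most 0.29, and that of Hspd1 (72.7 and 65.3 CPM) included 0. The median ratio was 0.67 for inducible members, 0.14 for constitutive members and -0.17 for all genes.

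The monocyte class was made of 3 clusters that the libraries filled unequally, so its ratio was also taken inside each. Cluster 2, led by Ly6i and Cxcl9, held 514 WT and 43 KO cells, and there Hspa1a was at 112 CPM (WT) and 81.9 CPM (KO), a ratio of -0.44 (-1.11 to 0.16). Cluster 4, led by Chil3 and Ace, held 56 WT and 300 KO cells, with Hspa1a at 147 and 396 CPM, a ratio of 1.43 (1.03 to 1.86). Cluster 16, whose leading genes include Rsad2 and Ccl7, held 32 WT and 44 KO cells, with Hspa1a at 215 and 854 CPM, a ratio of 1.99 (1.59 to 2.42), and Dnajb1 at 31.7 and 201 CPM, a ratio of 2.66 (1.66 to 3.85). The higher level in KO monocytes was thus present in clusters 4 and 16 and was not detectable in the cluster that held most of the WT monocytes. Without that cluster the ratio of Hspa1a in the class was 1.34, and it was 0.81 when stress genes were not held out of the clustering, which left 101 WT and 346 KO monocytes and ended the 2-fold call.

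cDC1, the Xcr1- and Clec9a-expressing dendritic cells that cross-present antigen, also had the Hsp70 pair higher in KO, with ratios smaller than in resident macrophages. Hspa1a was at 232 CPM (WT) and 539 CPM (KO), a ratio of 1.22 (1.05 to 1.39), and Hspa1b at 222 and 501 CPM, a ratio of 1.17 (1.00 to 1.35). These 2 of 6 inducible members were called higher, against 2.28% of 7586 genes called higher and 1.94% called lower. With stress genes not held out of the clustering, the ratio of Hspa1a was 0.99 and its call was lost. All 6 inducible members had intervals above 0, as did 9.81% of all genes, among them Dnajb1 at 72.9 and 126 CPM, Hsph1 at 38.7 and 66.3 CPM and Dnaja1 at 271 and 400 CPM. Of the constitutive members, Hspa8 (1702 and 1868 CPM) and Hspe1 (380 and 434 CPM) had intervals above 0, and those of Hsp90ab1 (1966 and 1929 CPM) and Hspd1 (150 and 161 CPM) included 0. The class held 109 WT and 274 KO cells, and the ratio of Hspa1a was above 1 both in the larger cluster 8 (1.14) and in the cycling cluster 13 (1.55).

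cDC2, the Cd209a- and Clec10a-expressing dendritic cells that mainly prime CD4+ T cells, differed from these 3 classes in the Hsp70 pair. Hspa1a was at 104 CPM (WT) and 102 CPM (KO), a ratio of -0.02 (-0.24 to 0.20), and Hspa1b at 102 and 99.5 CPM. These intervals, which cover counting error only, did not overlap those of resident macrophages, monocytes or cDC1. The ratio of Hspa1a was instead 0.84 with every deposited barcode (325 WT and 579 KO cells in the class), 0.64 under a stricter cell filter and 0.63 at a coarser clustering, each with an interval above 0. With every barcode and at the coarser clustering no cDC1 value was obtained. Whether cDC1 cells entered the cDC2 class there was not tested. Hsph1 was instead the 1 member called higher, at 18.8 CPM (45 UMIs) in WT and 59.1 CPM (340 UMIs) in KO, a ratio of 1.65 (1.2 to 2.14), against 2.16% of 7585 genes called higher and 6.00% called lower. The ratio of Hsph1 was 0.63, and no longer called, when each library was clustered alone. Dnaja1 was at 330 and 504 CPM, a ratio of 0.61 (0.50 to 0.73). All 4 constitutive members had intervals above 0, as did 11.7% of all genes, and Hspe1, at 293 and 405 CPM, had the largest ratio of them (0.47). The median ratio of the constitutive members, 0.24, was above that of the inducible members, 0.18, with -0.21 over all genes.

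**Figure D2:**
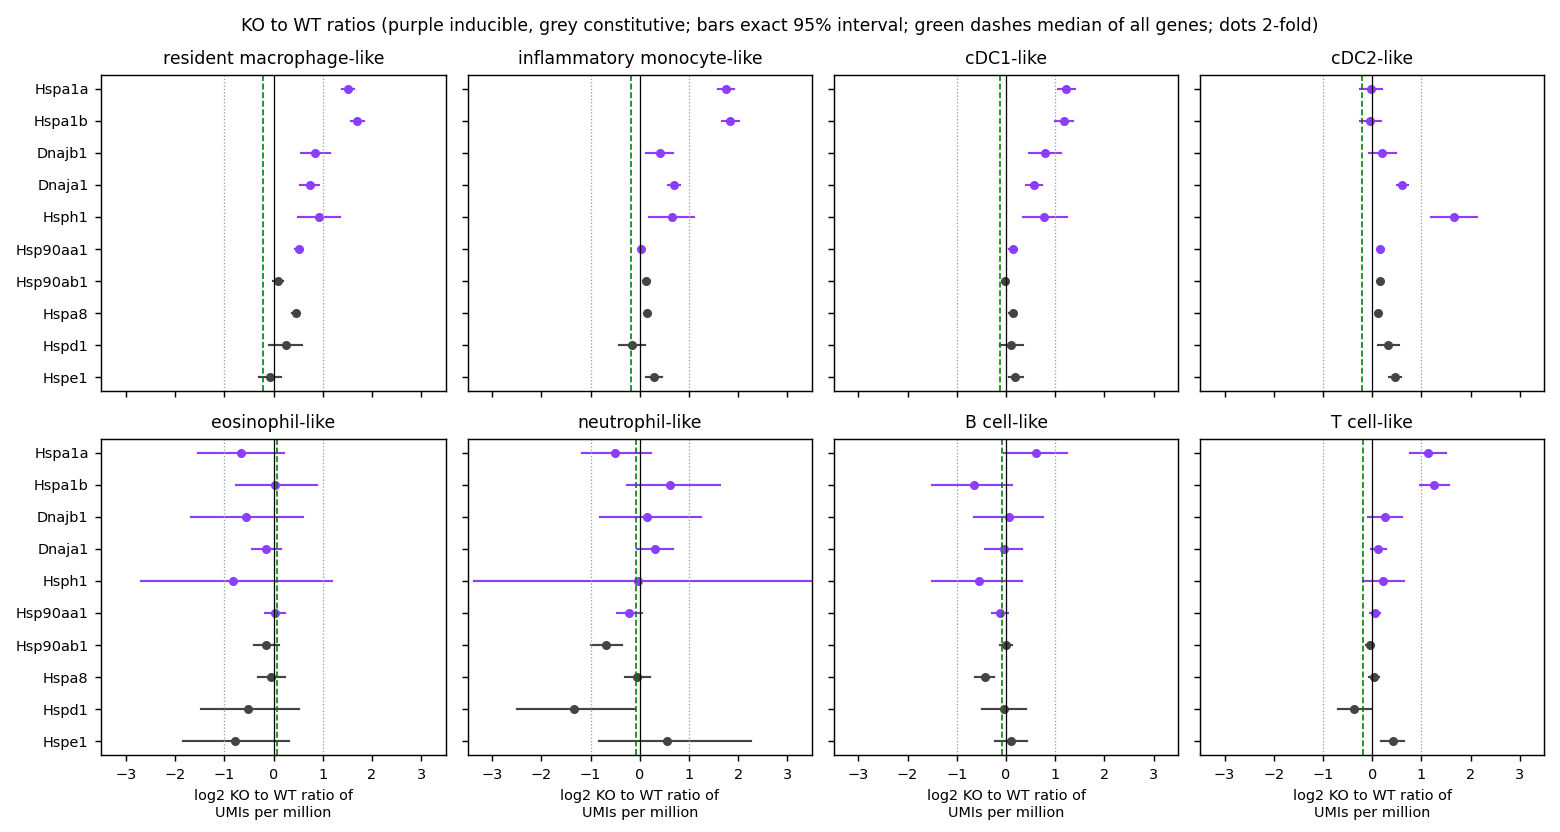
KO to WT ratio (log2, horizontal axis) of each inducible (purple) and constitutive (grey) member in 8 classes, with exact 95% counting intervals (that of Hsph1 in neutrophils runs past the axis), the median over all genes of the class (green dashes) and the 2-fold limits (dots). The Hsp70 pair lies between 1.17 and 1.84 in resident macrophages, monocytes and cDC1, and at -0.02 and -0.04 in cDC2.

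T cells, which are outside the labelled gate, had Hspa1a at 81.9 CPM (WT) and 180 CPM (KO) and Hspa1b at 119 and 287 CPM, and these 2 members were called higher (3.10% of 5071 genes were called higher and 10.7% lower). The ratios of 1.14 and 1.27 rested on few cells. The single cell with the most of the pair held 41.4% of its UMIs in KO, and without the 5 cells with the most in each library the ratio of the summed pair went from 1.21 to -0.02. The T cell class also joined 2 clusters in which the pair differed in opposite directions, as the closing paragraphs give. Markers of other types moved with the library in this class, with summed natural killer markers at 10390 and 40.6 CPM (1 of 7 at 0 in each), mast cell markers at 1699 and 123 CPM (1 and 5 of 6 at 0) and plasma cell markers at 5107 and 126 CPM (0 and 3 of 7 at 0). Higher in KO, like the pair, were resident macrophage markers, at 84.0 and 248 CPM (1 of 10 at 0 in each), and neutrophil markers, at 40.9 and 191 CPM (3 and 1 of 8 at 0). The part of all these markers was not tested. Hspd1 was at 181 CPM (WT) and 141 CPM (KO), while its partner Hspe1 was at 255 and 340 CPM.

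In B cells, neutrophils and eosinophils, no inducible member was called higher. In B cells, Hspa1a was at 63.2 CPM (WT) and 96.5 CPM (KO) and Hspa1b at 72.0 and 45.7 CPM, with intervals that included 0, and 1.04% of 3370 genes were called higher and 6.50% lower. Hspa8 was lower in KO B cells, at 1097 and 812 CPM (ratio -0.43, -0.62 to -0.25). Beside it, summed neutrophil markers in B cells were at 964 and 17.8 CPM (1 and 5 of 8 at 0) and plasma cell markers at 1763 and 284 CPM (1 and 2 of 7 at 0), and their part was not tested. In neutrophils, Hspa1a was at 117 and 83.2 CPM and Hspa1b at 56.3 and 86.6 CPM, with 4.52% of 2344 genes called higher and 7.47% lower. Hspd1 was the 1 constitutive member past the 2-fold limit in any class, at 51.6 CPM (11 UMIs) in WT and 20.5 CPM (18 UMIs) in KO neutrophils (ratio -1.33, -2.49 to -0.10), and with so few UMIs it was not among the 2344 genes. Hsp90ab1 was lower there too, at 530 and 331 CPM (ratio -0.68, -1.0 to -0.35), beside summed plasma cell markers at 1721 and 86.6 CPM (1 and 4 of 7 at 0) and resident macrophage markers at 1248 and 441 CPM (2 and 1 of 10 at 0), whose part was not tested.

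Eosinophils carried few UMIs, with a median of 755 in a WT cell and 970.5 in a KO cell. The intervals of all 10 members included 0. Hspa1a was at 108 CPM (20 UMIs) in WT and 67.6 CPM (31 UMIs) in KO eosinophils. Dnaja1 was at 792 and 716 CPM in eosinophils, and among the 8 classes only T cells (661 and 721 CPM) had intervals that overlapped these. Hsp90aa1 was at 1529 and 1560 CPM. Over 2049 genes, 5.37% were called higher and 3.17% lower. The interval of Hspa1a in eosinophils ended at 0.22 and that of Hspa1b at 0.88, and both cover counting error only. Under the other filters, clusterings and scalings the ratio of Hspa1a in eosinophils ran from -1.24 to 0.67. Markers of other types moved with the library here too, and their part was not tested. Summed mast cell markers were at 5757 and 17.5 CPM (1 and 3 of 6 at 0) and plasma cell markers at 4228 and 164 CPM (1 and 3 of 7 at 0). Resident macrophage markers were at 770.1 and 129 CPM (2 of 10 at 0 in each), beside eosinophil markers at 1546 and 1737 CPM. Neutrophil markers made the highest sum in the class, at 9522 and 7530 CPM (1 of 8 at 0 in each). The class took its name from 3 raised eosinophil markers of 7, Siglecf, Ccr3 and Alox15.

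The range of levels across classes did not separate inducible from constitutive members. The inducible sum spanned 1.90-fold between the highest and lowest class in WT and 3.87-fold in KO, and the constitutive sum 3.08-fold and 3.89-fold. Over all kept cells, Hsp90aa1 held 16649 of the 28440 inducible UMIs in WT and 24797 of 52422 in KO. The inducible sum is therefore weighted to this 1 gene, here and wherever the sum is used. Between the highest and the lowest of the 8 classes, Hspa1a spanned 7.50-fold in WT and 20.1-fold in KO, and Hspa1b 7.37-fold and 29.5-fold. Dnajb1 spanned 2.53-fold and 4.33-fold, Dnaja1 3.37-fold and 3.16-fold, and Hsp90aa1 1.92-fold and 2.71-fold. Among constitutive members, Hspa8 spanned 2.32-fold and 3.11-fold, Hsp90ab1 4.02-fold and 6.24-fold and Hspd1 3.51-fold and 8.16-fold, whereas Hspe1 spanned 16.2-fold and 12.7-fold, with its lowest levels in neutrophils and eosinophils. Hsph1, at 19.5-fold and 23.4-fold, rested on 1 and 4 UMIs in neutrophils, and the span of Hspe1 on 5 UMIs (WT) and 30 UMIs (KO) there.

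Among the 8 classes, the order of Hspa1a began with KO resident macrophages at 1358 CPM, then KO cDC1 at 539, WT resident macrophages at 474, KO monocytes at 417 and WT cDC1 at 232 CPM. The intervals of these first 5 did not overlap one another. KO T cells followed at 180 CPM, overlapping WT cDC1, and from WT monocytes at 124 CPM down to WT B cells at 63.2 CPM each neighbour overlapped the next. Hsp90ab1 had another order, with T cells highest (2130 CPM in WT, 2063 in KO), then cDC1 and B cells, whose intervals overlapped in a chain with those of T cells, and neutrophils lowest. The plot of levels by class shows both orders.

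**Figure D3:**
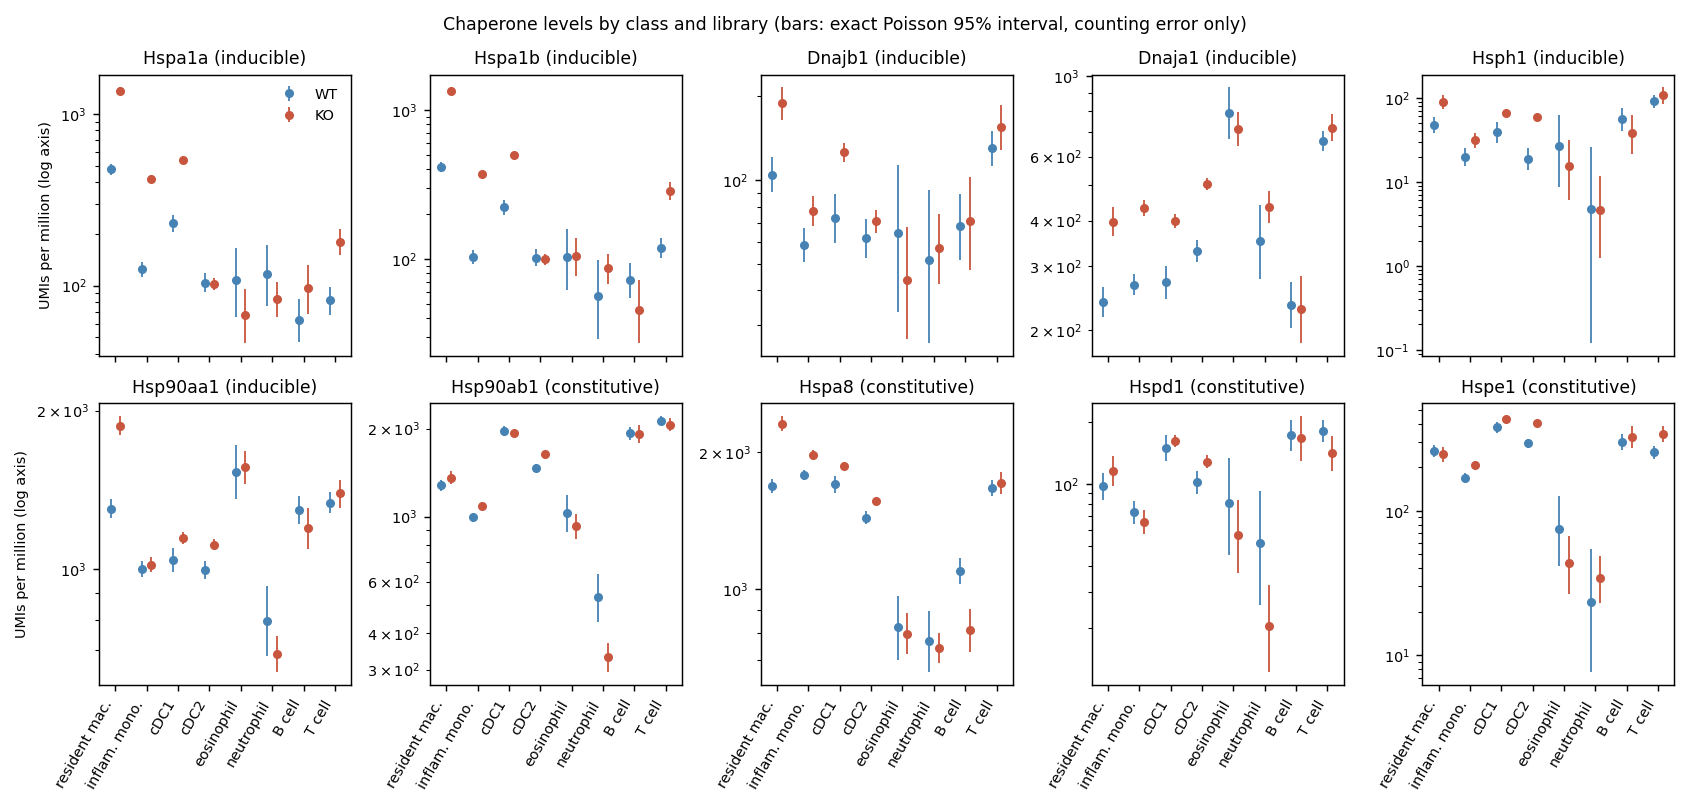
Level of each member (CPM, log axis) in 8 classes of the WT and KO libraries, with exact 95% Poisson intervals. Hspa1a and Hspa1b are highest in KO resident macrophages, at 1358 and 1350 CPM, while Hsp90ab1 is highest in T cells and lowest in neutrophils.

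Over the 16 pools of class and library, Hspa1a followed Hspa1b (Pearson r = 0.94), and Hsp90ab1 followed Hspd1 (0.97) and Hspe1 (0.89). Hspa1a and Dnaja1, both inducible, did not vary together (-0.15). These values describe pools that share libraries and depth. Among 6897 other genes, those whose levels most resembled the summed inducible members were Tubb2a (0.82), Itgav (0.81), Baiap2 (0.80), Lmna (0.78) and Bmp2 (0.76). Those most like the summed constitutive members were Eef1a1 (0.96), Snhg6 (0.96), Mrpl23 (0.96), Naca (0.95) and Rpl3 (0.95), of which Eef1a1 encodes a translation elongation factor and Rpl3 a ribosomal protein.

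Shares of cells with at least 1 UMI were taken after every cell was thinned to 2000 UMIs, which left out shallower cells. Hspa1a was present in 32.0% (25.9 to 38.6, 222 cells) of WT and 49.6% (40.2 to 59.0, 117 cells) of KO resident macrophages, with 56 and 19 cells left out. In monocytes it was present in 17.5% (14.2 to 21.2, 474 cells) of WT and 33.4% (28.5 to 38.7, 347 cells) of KO cells. cDC1 had 21.0% (13.5 to 30.3) and 35.4% (29.7 to 41.5), and cDC2 10.7% and 10.5%. No class is known to lack the gene. Low shares were found at the same depth in neutrophils (5.66% and 5.02%), T cells (6.33% and 10.2%) and B cells (8.24% and 3.57%), and a share at that level cannot be told apart from free RNA. Without thinning, the shares were 41.4% and 67.6% in resident macrophages (medians of 5358.5 and 6890 UMIs) and 7.32% and 8.61% in neutrophils (2285.5 and 3014 UMIs).

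Hspa1b behaved like Hspa1a, with 23.4% of WT and 53.0% of KO resident macrophages after thinning. Dnajb1 was present in 14% of WT and 29.1% of KO resident macrophages, but in 10.1% (6.69 to 14.4) and 10.9% (6.11 to 17.7) when cells were thinned to 1000 UMIs, so no difference in its share is read. At 1000 UMIs Hspa1a was present in 22.5% and 39.1% of resident macrophages. At 2000 UMIs the constitutive Hsp90ab1 was present in 88.3% (WT) and 92.3% (KO) of resident macrophages, and in 54.7% and 31.4% of neutrophils. In eosinophils only 6 WT and 25 KO cells reached 2000 UMIs, and no share was read from them.

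The UMIs of the pair were held by a minority of cells. In resident macrophages the 10% of cells with the most held 76.4% of the UMIs of the pair in WT and 69.4% in KO, against 33.9% and 32.3% for Hsp90ab1 and 27.8% and 29.2% for all UMIs, each ranked by its own count. In monocytes the same 10% held 74.5% and 60.1%. The highest WT resident macrophage held 12.8% and the highest KO one 21.9%. Without these cells the ratio of the summed inducible members went from 1.03 to 0.90.

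In resident macrophages and monocytes the libraries nevertheless also differed in the share of cells with no UMI of the pair. Thinned resident macrophages with none made up 60.8% (54.1 to 67.3) in WT and 31.6% (23.3 to 40.9) in KO. Those with 10 or more made up 6.31% (3.49 to 10.4) and 12.8% (7.36 to 20.3), with intervals that overlapped. Thinned cells had means of 2.69 UMIs (WT) and 5.91 UMIs (KO). In monocytes, cells with none made up 75.7% and 53.9% and those with 10 or more 0.633% and 3.75%. In cDC2, 0 of 224 WT cells and 1.57% of KO cells had 10 or more.

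**Figure D4:**
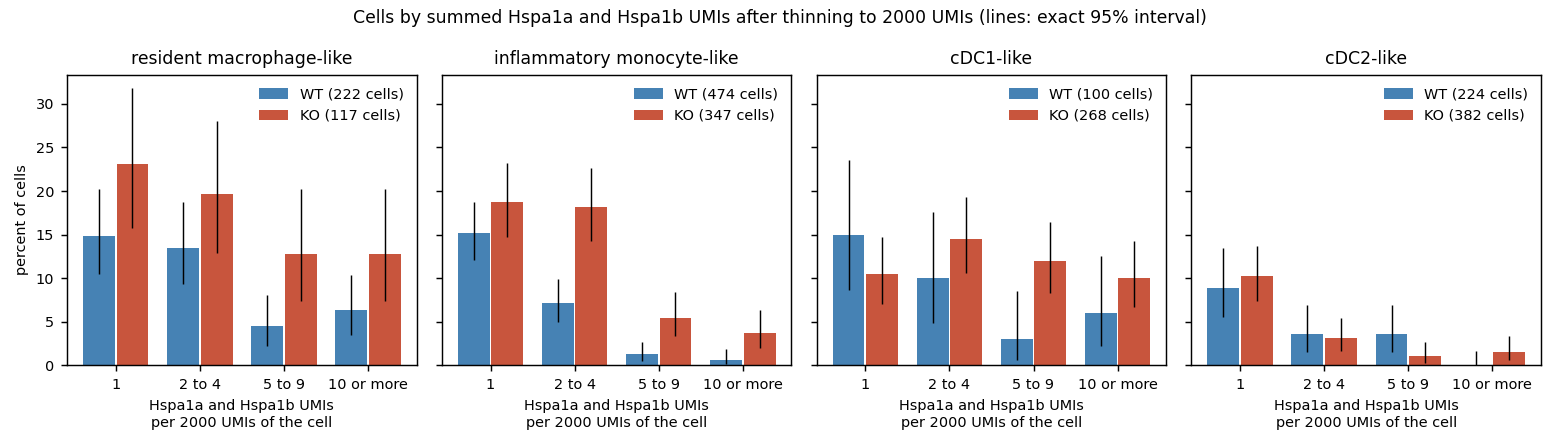
Share of cells (%, vertical axis) with 1, 2 to 4, 5 to 9 or 10 or more Hspa1a and Hspa1b UMIs per 2000 UMIs of the cell, for WT (blue) and KO (red), with exact 95% binomial intervals; cells with none are not drawn. In resident macrophages the KO bar is the taller in each of the 4 bins, and cells with 10 or more are 6.31% in WT and 12.8% in KO.

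Within resident macrophages, cells rich in Hspa1a were also rich in some other members. Across thinned cells, Hspa1a went with Hspa1b at r = 0.90 in WT and 0.91 in KO, with Dnajb1 at 0.82 and 0.73, and with Hsp90aa1 at 0.61 and 0.66. It went less with Hsp90ab1 (0.37 and 0.42), Dnaja1 (0.16 and 0.27) and Hspd1 (0.23 and 0.13). In monocytes the pair went together at 0.53 and 0.65, whereas Hspa1a and Dnajb1 were at 0.01 and 0.18. These are descriptions across the cells of 1 library each. In resident macrophages the highest thinned cell held 88 UMIs of the pair in WT and 121 in KO, against means of 2.69 and 5.91. A few such cells can carry a value of r, and values without them are not given.

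Other genes of the stress response, taken from fixed lists, did not follow the Hsp70 pair as a whole. In resident macrophages, none of the 4 tested of 6 heat shock factor and feedback genes was called (median ratio 0.18), although Bag3, a co-chaperone induced by HSF1, was at 41.4 and 75.5 CPM (ratio 0.87, 0.41 to 1.33). Of 20 cytosolic co-chaperones 18 were tested, with 1 called higher (Dnajb4, another J-domain protein, at 44.2 and 106 CPM) and none lower, against 2.76% and 6.19% of all genes, and a median of 0.02, and Dnajc7 was at 77.7 CPM (WT) and 42.1 CPM (KO). None of the 7 tested subunits of the cytosolic chaperonin CCT was called and 3 had intervals below 0, against 28.5% of all genes. Of 12 endoplasmic reticulum chaperones, 1 was called lower, near the 6.19% of all genes, Hyou1 at 48.7 and 20.6 CPM (ratio -1.24, -1.96 to -0.57), and the median was -0.09. Of 7 mitochondrial chaperones 3 were tested, with a median of -0.33, and none of the small heat shock proteins reached 50 UMIs.

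The ubiquitin and redox stress genes stood higher, with 6 of 7 tested intervals above 0 (11.5% of all genes), 1 below and a median of 0.69 in resident macrophages. Hmox1, the heme oxygenase, was at 309 and 766 CPM there (ratio 1.31, 1.15 to 1.46), and Ubb, a polyubiquitin gene, at 1116 and 2153 CPM. Immediate early genes, which respond within minutes to many stimuli including dissociation, were divided. Of 17, 5 had intervals above 0 and 7 below (11.5% and 28.5% of all genes), with a median of -0.16, and 1 was called higher (2.76% of all genes were), Atf3 at 336 and 850 CPM (ratio 1.34, 1.19 to 1.49).

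In monocytes none of the 6 heat shock factor and feedback genes, 7 CCT subunits or 12 endoplasmic reticulum chaperones was called, with medians of 0.09, -0.09 and -0.16. The 20 co-chaperones had a median of -0.14, with 1 called lower (6.62% of all genes were), Fkbp5 at 12.8 and 5.71 CPM, and Hspa2 at 36.1 and 18.6 CPM. Of 17 immediate early genes none was called, 6 had intervals above 0 and 7 below (15.5% and 32.1% of all genes). Of 8 ubiquitin and redox genes 2 were called higher, against 2.75% of all genes, Hmox1 at 450 and 1706 CPM and Gclm at 21.5 and 48.4 CPM, with a median of 0.15. Hmox1 is also a leading gene of cluster 4, which held most of the KO monocytes.

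Several measures moved with the genotype beside these results. The median share of mitochondrial UMIs in resident macrophages was 3.95% in WT and 5.55% in KO, and in monocytes 3.27% and 2.70%. Summed markers of plasma cells in resident macrophages were at 1316 CPM (WT) and 165 CPM (KO) (1 of 7 at 0 in each), and those of inflammatory monocytes at 997 and 325 CPM (none of 10 at 0). In the monocyte class, resident macrophage markers summed to 4735 and 2255 CPM (1 of 10 at 0 in each) and plasma cell markers to 1420 and 163 CPM (0 and 2 of 7 at 0). In cDC1, markers of inflammatory monocytes were at 1578 and 818 CPM (2 and 0 of 10 at 0), those of neutrophils at 9.87 and 182 CPM (4 and 1 of 8 at 0) and those of plasma cells at 714 and 117 CPM (1 of 7 at 0 in each). Resident macrophage markers in cDC1 were higher in KO, at 143 and 334 CPM (none of 10 at 0). In cDC2, markers of inflammatory monocytes were at 2034 and 873 CPM (1 and 0 of 10 at 0), and those of plasma cells at 790.2 and 94.1 CPM (1 of 7 at 0 in each). Their part in the chaperone levels was not tested.

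The ratio of the summed pair in resident macrophages depended on which cells were taken. Among cells at or below the class median of 4.42% mitochondrial UMIs it was 0.97 (995 and 1955 CPM), and above it 2.17 (733 and 3303 CPM). Among cells with at most the median of 6105 UMIs it was 0.49 (1884 and 2639 CPM), and above it 2.29 (556 and 2718 CPM). In monocytes the same divisions gave 1.67 and 2.08 by mitochondrial share and 1.66 and 2.02 by depth, and in cDC1 1.05 and 1.39, and 1.49 and 1.31. The pair was higher in KO in all 12 subsets, and the size of the ratio changed most in resident macrophages, where the pair was higher in WT cells of low depth than in WT cells of high depth.

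**Figure D5:**
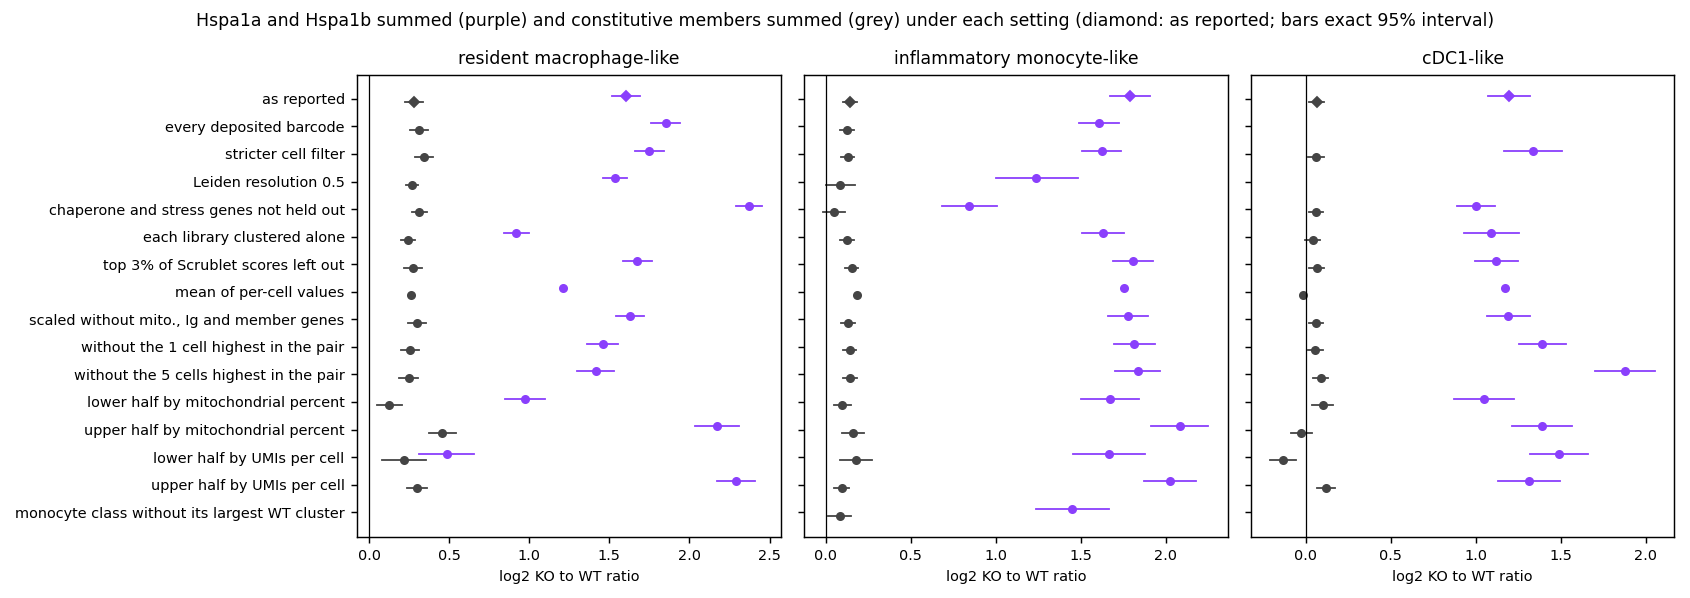
KO to WT ratio (log2, horizontal axis) of Hspa1a and Hspa1b summed (purple) and of the constitutive members summed (grey) in resident macrophages, monocytes and cDC1, under each filter, clustering, scaling or subset of cells, with exact 95% intervals for sums. The pair lies above 0 in every setting shown and ranges from 0.49 to 2.37 in resident macrophages.

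Over all kept cells of each library, Hspa1a was at 128 CPM (WT) and 334 CPM (KO), a ratio of 1.39, against a median of -0.24 over all genes. Hspa1b was at 123 and 322 CPM, Dnaja1 at 261 and 442 CPM and Hsph1 at 30.5 and 51.4 CPM. Dnajb1 was at 78.3 and 87.6 CPM, Hsp90aa1 at 877 and 1110 CPM, and the constitutive Hspa8 at 1268 and 1666 CPM, Hsp90ab1 at 1312 and 1533 CPM, Hspe1 at 232 and 313 CPM and Hspd1 at 120 and 116 CPM. These sums mix a change in cell composition with a change within cells.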

How the data were processed

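The deposited files are gene by barcode matrices of raw UMI counts, 1 per library, which the authors made from 10x Genomics 3′ libraries with Cell Ranger 3.0.2 (per the file headers). The submitters' processing notes name mm10 and Seurat 4. Cells with 200 to 6000 detected genes and at most 15% mitochondrial counts were kept, as the study's methods state, removing 18.5% of WT and 16.8% of KO barcodes. Both libraries were clustered together (scanpy 1.11.5, Leiden, 2000 variable genes, 30 components, 15 neighbours, resolution 1) with the members and other stress genes held out. A cluster was named where at least 3 fixed markers were raised 2-fold. This rule was tightened after the first clustering had been seen, which left cluster 6 unnamed. Doublets were not removed, and leaving out the top 3% of Scrublet scores was an alternative. A class was compared where both libraries gave 50 cells or more.

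Counts were summed per class. Intervals are exact Poisson (levels), exact conditional binomial (ratios) and Clopper-Pearson (shares) at 95%, and PCR and animal variation are not covered. The 2-fold call was made for genes that reached 50 UMIs in sum. A count of 0 was given its upper limit at 3 counts. The script was tested on simulated data. Named genes were the members, the list genes with the 2 largest and 2 smallest ratios in resident macrophages and monocytes, and the 5 most similar genes by pattern. Ubb, Bag3 and Dnajb4 were named after their values were seen. The members and lists were chosen with earlier results of these data known.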

Additional observations from a re-analysis of the deposited data

Results flagged for a closer look

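The Hsp70 pair differed between the libraries in opposite directions in the 2 clusters of T cells. In cluster 14, led by Icos, Rora and Ctla4 (73 WT and 47 KO cells), Hspa1a was at 37.1 CPM (WT) and 369 CPM (KO), a log2 ratio of 3.32, and the ratio of Hspa1b was 3.37. In cluster 10 (168 WT and 63 KO cells), Hspa1a was at 96.3 CPM (WT) and 15.2 CPM (KO), a ratio of -2.66, and the ratio of Hspa1b was -1.54. The libraries also differed in other markers there. Summed natural killer markers, Gzma among them, in cluster 10 summed to 13702 CPM (WT) and 50.6 CPM (KO) (1 and 3 of 7 at 0), plasma cell markers at 6405 and 104 CPM (0 and 3 of 7 at 0), and mast cell markers in cluster 14 at 6818 and 172 CPM (1 and 5 of 6 at 0). In cluster 14, resident macrophage markers were higher in KO, like the pair. They summed to 59.95 CPM (WT) and 395.6 CPM (KO) (5 and 1 of 10 at 0). The part of all these markers in the Hsp70 values was not tested. The difference between the clusters was not tested, since each has 1 library per genotype. The 47 KO cells of cluster 14 are below the minimum of 50 cells per library set for comparing classes. Both clusters together held 118 UMIs of Hspa1a in WT and 133 in KO. The low levels of Hspa1a, in WT cluster 14 and KO cluster 10, therefore rest on few UMIs. Counting intervals are not given for the ratios of these clusters, and their sizes are uncertain. The pair was concentrated in few cells, the highest holding 41.4% of the UMIs of the KO class.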

How the results depend on the processing

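No paired analysis was possible because there is 1 library per genotype. Under the other filters, clusterings and scalings no called ratio changed sign, although the 2-fold call of Hspa1a was lost in resident macrophages with libraries clustered alone (0.82), and in monocytes (0.81) and cDC1 (0.99) with stress genes not held out. Calls were also lost for Hspa1b in monocytes (0.88, stress genes not held out), Hsph1 in cDC2 (0.63, libraries clustered alone) and Hspa1a in T cells (0.91, mean of per-cell values). In all, 645 ratios lay inside the interval of the reported value and 148 outside it. This count pools all members and classes, among them classes of few UMIs with wide intervals. In resident macrophages, 6 of 8 alternatives lay outside for the inducible sum, 5 of 8 for the pair and 1 of 8 for the constitutive sum. In monocytes these numbers were 3, 5 and 3 of 8. The summed inducible members of resident macrophages, 1.03 as reported, were at 1.17 with every deposited barcode, 1.11 with a stricter cell filter, 0.78 at a Leiden resolution of 0.5, 1.31 when stress genes were not held out, 0.54 when each library was clustered alone and 0.80 as a mean of per-cell values. Settings chosen after seeing the data gave 0.90 without the highest cell of each library, 0.79 without the highest 5, 0.58 and 1.42 below and above the median mitochondrial share, and 0.31 and 1.39 below and above the median depth. The constitutive sum (0.28) was at 0.34 under the stricter filter, 0.13 and 0.46 by mitochondrial share and 0.22 at low depth.

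In monocytes the inducible sum (0.58) was at 0.51 under the stricter filter, 0.37 with stress genes not held out, 0.51 per cell, 0.52 and 0.72 by mitochondrial share and 0.49 and 0.70 by depth. The constitutive sum (0.14) was at 0.085 at resolution 0.5, 0.048 with stress genes not held out, 0.19 per cell, 0.080 without the largest WT cluster, 0.10 at low mitochondrial share and 0.093 at high depth. In cDC1 the inducible sum (0.57) was at 0.64 under the stricter filter, 0.46 with stress genes not held out, 0.75 without the highest 5 cells, and 0.66 and 0.63 by depth. In cDC2 (0.27) it was at 0.40 with every barcode, 0.33 with stress genes not held out, 0.00034 with libraries clustered alone, 0.10 and 0.43 by mitochondrial share and 0.41 at high depth. Under these filters, clusterings and scalings, subsets of cells aside, the ratio of Hspa1a ranged from 0.82 to 2.29 in resident macrophages, 0.81 to 1.77 in monocytes, 0.99 to 1.29 in cDC1 and -0.16 to 0.84 in cDC2, where Hsph1 ranged from 0.63 to 1.94. The cause was not tested.

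In low-depth resident macrophages Hspa1a was at 0.35. Called values that changed direction were, in T cells without the highest 5 cells, Hspa1b (-0.22) and the pair (-0.019). Hspd1 in neutrophils, with too few UMIs for a call, went to 0.53 at low mitochondrial share. Hspa1a in cDC2, near 0 as reported (-0.02), was above 0 with every barcode (0.84), under the stricter filter (0.64) and at resolution 0.5 (0.63). With at least 200 or 20 UMIs in place of 50, genes called higher in resident macrophages numbered 56 or 267 (157 as reported) and lower 95 or 601 (352). In monocytes 117 were higher at 200 UMIs (202 as reported), and 174 or 803 lower (486). No cDC1 value was obtained with every barcode or at resolution 0.5, nor an eosinophil value with libraries clustered alone.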

Other observations

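Classes with under 50 cells in 1 library were left out of the comparisons and are given as values. In stromal-like cells Hspa1a was at 209 CPM (WT) and 579 CPM (KO), a ratio of 1.47 (1.07 to 1.88). Mature dendritic cell-like cells had 3 UMIs of Hspa1a among 19 WT cells and 438 CPM in 42 KO cells. Natural killer-like cells were at 46.5 and 43.5 CPM, epithelial-like cells (144 WT, 16 KO) at 31.9 and 58.4 CPM, and plasma cell-like cells (234 WT, 5 KO) at 29.7 and 34.9 CPM. In the unnamed cluster 6, led by Retnla, Mgl2 and Ccl24 (24 WT and 261 KO cells), Hspa1a was at 55.0 and 159 CPM, a ratio of 1.53 (0.68 to 2.54). In the unnamed cluster 11, whose leading genes include Gm26917 and Gm42418 (122 WT and 70 KO cells, medians of 1030.5 and 846 UMIs), it was at 517 and 682 CPM, a ratio of 0.40 with an interval that included 0.

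Among the 588 WT and 506 KO barcodes that the cell filter removed, Hspa1a was at 43.2 CPM (WT) and 395 CPM (KO), a ratio of 3.19, and Hspd1 at 218 and 62.6 CPM, a ratio of -1.80. These barcodes had median mitochondrial shares of 52.8% (WT) and 29.8% (KO) and medians of 2004 and 1162 UMIs. The part of these differences in the chaperone levels was not tested.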
